A study of Mus musculus with 6 samples.

Results

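Kit ligand (Kitl, ENSMUSG00000019966) and its receptor (Kit, ENSMUSG00000005672) were followed in the RNA of MLE-12 cells, and these 2 genes were picked by name out of the 34745 genes of the table. Kitl was chosen on its change between the groups in the same 6 libraries, so the changes of both genes are given as descriptions without a test. MLE-12 is a mouse lung epithelial line that was established from a lung tumour of mice in which the surfactant protein C promoter drives the simian virus large T antigen, and all 6 cultures share this background. In the NR4A1 overexpression group (3 libraries) the cells received the open reading frame of mouse Nr4a1 in the pCMV-SPORT6 plasmid, and in the vector control group (3 libraries) they received pCMV-SPORT6 alone, with the same lipid reagent in both. NR4A1 is an orphan nuclear receptor that acts as a transcription factor, and the comparison asked which transcripts differ when it is overexpressed in lung epithelial cells.

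KITL, also called stem cell factor, is made as a membrane protein that can stay on the cell surface or be shed by proteases. It binds KIT, a class III receptor tyrosine kinase related to PDGFRA, PDGFRB, CSF1R and FLT3, which dimerizes and signals through adaptors such as GRB2, SHC1 and GAB2 to RAS, PI3 kinase, SRC family kinases and STAT5, and which CBL proteins mark for degradation. Mast cells, melanocytes, germ cells and blood stem cells depend on this pair, and epithelial cells and fibroblasts of the lung are known as sources of the ligand.

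Because NR4A1 binds DNA near the genes it regulates, the 250 bases before the RefSeq start of each gene (GRCm38.p6, plus strand) are shown, with capitals marking TATAAA and GGGCGG, the cores of the TATA box and the GC box, on either strand.
Kitl, chr10:100015571-100015820: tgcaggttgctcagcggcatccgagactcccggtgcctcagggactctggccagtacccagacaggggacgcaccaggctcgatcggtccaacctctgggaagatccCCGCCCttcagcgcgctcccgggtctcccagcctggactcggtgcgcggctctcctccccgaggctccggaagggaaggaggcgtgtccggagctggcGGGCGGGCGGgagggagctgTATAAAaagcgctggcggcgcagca
Kit, chr5:75574737-75574986: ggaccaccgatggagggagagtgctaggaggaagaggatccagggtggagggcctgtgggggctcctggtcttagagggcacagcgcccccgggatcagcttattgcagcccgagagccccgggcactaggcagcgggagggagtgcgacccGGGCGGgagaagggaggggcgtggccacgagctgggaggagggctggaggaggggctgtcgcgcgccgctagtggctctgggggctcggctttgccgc
The Kitl promoter holds a TATA box 25 bases before the RefSeq start, and Kit has none. Starts differ between annotations. In GENCODE the transcript Kitl-202 starts at 100015630 and Kit-204 at 75574916, both inside the printed stretches. By that annotation this TATAAA lies within exon 1 of Kitl-202. TATAAA lies in 13.6% of the 32851 promoter windows of 300 bases (250 before to 50 after a start) and GGGCGG, which both genes hold, in 35.7%. The NBRE, to which NR4A1 binds as a monomer, reads AAAGGTCA and lies in 1.51% of all windows on either strand. It lies in no window of Kitl or Kit, and neither does its shorter form AAGGTCA, contained in it and found in 4.72%, nor TGATATTT, an arm of the Nur response element found in 1.32%. These letters describe windows of 300 bases only, and only exact matches were counted. In the promoter of Ereg, the epiregulin gene, the paper proposes direct binding of NR4A1 to an element it calls S1. In the sequence that the paper lists, S1 holds none of these NR4A1 strings letter for letter. Such a search would therefore miss S1, and it cannot show that the Kitl and Kit windows lack NR4A1 sites. The G and C content was 68.7% in the Kitl window and 69.0% in the Kit window, against a median of 52.7% over all windows.

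Counts were summed per gene, so the forms of each protein cannot be told apart in these values. The stretches that separate the forms are shown for this reason. Exon 6 of Kitl, 84 bases of coding sequence that encode the main cleavage site of the ligand, is part of the transcript Kitl-202 and is skipped in Kitl-201, which yields the form that mostly stays on the membrane. In Kit, exon 9 ends 12 bases (4 codons) later in Kit-201 than in Kit-204, and the capitals mark these bases.
Kitl exon 6, chr10:100080857-100080940: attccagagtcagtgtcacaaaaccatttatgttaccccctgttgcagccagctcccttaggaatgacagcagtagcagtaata
Kit end of exon 9, chr5:75639111-75639158: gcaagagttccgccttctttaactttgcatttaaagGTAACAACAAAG
No stretch of 50 bases in any annotated Kitl or Kit transcript (6005 and 8901 different stretches) occurs in a transcript of another gene, and no other gene of the table overlaps either of them.

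The libraries held between 15019038 and 17574340 counts, at which 3 counts of a gene correspond to 0.171 to 0.200 CPM (counts scaled to a common library size). Nr4a1 was at 3425, 3580 and 3961 TMM-normalized CPM in the NR4A1 overexpression libraries and at 24.8, 30.4 and 26.2 CPM in the vector controls, above every control in each library, with reads of the plasmid and of the cells' own gene counted together. NR4A1 overexpression replicate 2 stood apart. Its summed level of 6 smooth muscle markers was 321 CPM against 1.49 to 2.72 CPM in the other 5 libraries, that of 12 endothelial markers 132 against 14.7 to 19.5 CPM, and that of 7 fibroblast markers 1486 against 945 to 1068 CPM. In the fibroblast list 4 of the 7 genes were highest there, led by Col1a2, Col1a1 and Col3a1 at 268, 250 and 59.0 CPM against at most 16.4, 17.5 and 7.23 CPM elsewhere, while Dcn, the gene of that list with the highest mean, was lowest there (878 against 905 to 1031 CPM). In the endothelial list, with Egfl7 the highest in the mean, 10 of the 12 genes were highest in this library and Tek was lowest in it, and in the smooth muscle list, with Acta2 the highest, all 6 were highest. Values without this library are given wherever a result rests on it. The summed level of 8 lung epithelial markers was 681 to 787 CPM under NR4A1 overexpression and 802 to 919 CPM in the vector controls. Krt19 was the highest of them, while Epcam had 2 to 22 counts and Cldn4 and Cldn7 were at 0 in 5 of the 6 libraries. Of the 5 tested, Krt19, Krt8, Cdh1 and Nkx2-1 were lower under NR4A1 overexpression, at adjusted p of 0.620 to 0.847 (edgeR's quasi-likelihood test). Krt18 went the other way, with 164 counts in NR4A1 overexpression replicate 2 against 2 to 21 in the other libraries. Nothing in the labels says that the 3 cultures of a group were transfected separately, so errors measure the spread between these libraries.

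Kitl was higher in every NR4A1 overexpression library than in every vector control, by 2.40-fold in the means. It lies on chromosome 10 from 100015630 to 100100413 (GRCm38, plus strand). In the order of the replicate numbers, its counts were 1858, 1754 and 1723 under NR4A1 overexpression and 859, 725 and 779 with the vector. These counts correspond to 125.6, 104.5 and 99.5 CPM under NR4A1 overexpression and to 49.7, 43.3 and 44.1 CPM in the controls. The groups did not overlap, with the lowest value under NR4A1 overexpression, 99.5 CPM, far above the highest control, 49.7 CPM. The means were 109.9 ± 13.8 and 45.7 ± 3.50 CPM (SD, n = 3 each), and the log2 fold change was 1.27 with a standard error (SE) of 0.116. The log2 fold change was 1.30 without NR4A1 overexpression replicate 2, and with each library left out in turn it lay between 1.16 and 1.33. In this library, with its high smooth muscle and endothelial markers, Kitl was the middle of the group's 3 values. Replicate 1, which had the highest Kitl of the group, had its lowest Nr4a1. The spread between libraries (coefficient of variation 12.6% and 7.67%) was larger than counting error alone gives (2.37% and 3.56%). In RNA from whole cultures, more cells that express a gene and more RNA per cell cannot be told apart.

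**Figure D1:**
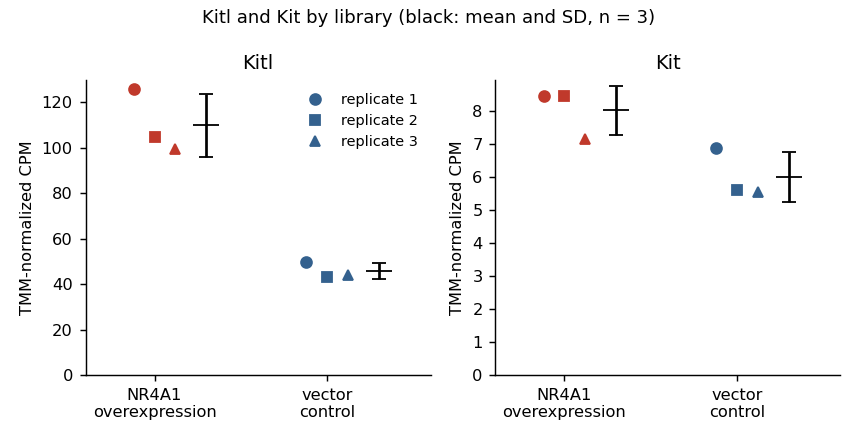
TMM-normalized CPM of Kitl (left) and Kit (right) in each library, with the symbol giving the replicate number, the colour the group, and the black bar the mean with its SD (n = 3). The Kitl groups are separated by a wide gap, 99.5 to 125.6 against 43.3 to 49.7 CPM, while the Kit groups, 7.16 to 8.46 against 5.55 to 6.89 CPM, nearly touch.

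Kit, the receptor, was present at a low level in both groups and was 1.33-fold higher in the mean under NR4A1 overexpression. It lies on chromosome 5 from 75574916 to 75656722 (GRCm38, plus strand). Its counts were 125, 142 and 124 under NR4A1 overexpression and 119, 94 and 98 with the vector, which gives 8.45, 8.46 and 7.16 CPM against 6.89, 5.61 and 5.55 CPM. The groups did not overlap, but the lowest NR4A1 overexpression library was only 1.04 times the highest vector control. The means were 8.02 ± 0.746 and 6.02 ± 0.755 CPM (SD, n = 3 each), and the log2 fold change was 0.41 with an SE of 0.168. Without NR4A1 overexpression replicate 2 it was 0.37. At counts near 100, counting error alone gives a coefficient of variation of 8.76% and 9.82%, close to the 9.29% and 12.6% between libraries. Of the 12941 genes tested, 6.69% were higher in every NR4A1 overexpression library without overlap and 6.22% were lower, so that a separation of this kind was common among all genes.

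Levels of the 2 genes can be set against each other only per length, as FPKM (fragments scaled by gene length and library size). Kitl was at 18.6, 15.6 and 15.0 FPKM under NR4A1 overexpression and at 7.51, 6.58 and 6.67 FPKM in the vector controls. Kit was at 0.642, 0.647 and 0.552 FPKM and at 0.533, 0.438 and 0.430 FPKM. The ligand was thus above the receptor in all 6 libraries. The ratio of Kitl to Kit FPKM was 29.0, 24.1 and 27.1 under NR4A1 overexpression and 14.1, 15.0 and 15.5 in the vector controls. These groups did not overlap, but the ratio rests on the Kitl values by which that gene was chosen. Their separation is therefore no further result. Kitl stood above 53.3% to 56.7% of the tested genes in the vector control libraries and above 74.7% to 79.8% under NR4A1 overexpression. Kit stood above 9.06% to 12.1% of them in the 6 libraries. The gene lengths behind the FPKM are not given in the sources used here. Counts, library totals and FPKM imply a Kit length well above the 5214 and 5241 bases of its coding transcripts. The ratio is therefore higher than the lengths of Kit-201 and Kitl-202 (5648 bases) would give. A length is the same in every library, so the difference of the ratio between the groups does not depend on it.

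Cells that carry KIT as a hallmark left little trace in these libraries. Of 8 mast cell markers, 7 were at 0 counts in all 6 libraries and Hdc, the histidine decarboxylase, had 1 to 7 counts. Of 6 melanocyte markers, Dct and Tyr were at 0 in all libraries and Pmel, the highest, had 5 to 29 counts. The summed level was at most 0.473 CPM for the mast cell list and 0.406 to 1.68 CPM for the melanocyte list. Of 6 leukocyte markers, Laptm5 and Tyrobp were at 0 in all libraries, Ptprc had at most 1 count, and Coro1a was the highest. The summed level of this list was 1.62 to 2.30 CPM under NR4A1 overexpression and 1.47 to 2.32 CPM in the vector controls.

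The receptors most related to KIT were below Kit in FPKM in 4 of the 6 libraries, and their high values came from NR4A1 overexpression replicate 2 and, for Pdgfrb, vector control replicate 1. Pdgfra and Pdgfrb bind platelet-derived growth factors, CSF1R binds macrophage colony-stimulating factor and FLT3 binds the FLT3 ligand. Pdgfrb, the highest of the 4 by mean FPKM, had 15, 669 and 9 counts under NR4A1 overexpression against 81, 8 and 4 with the vector. Its log2 fold change of 2.94 (SE 1.70, adjusted p = 0.840, edgeR's quasi-likelihood test with Benjamini-Hochberg adjustment) turned to -1.24 without NR4A1 overexpression replicate 2. The counts of Pdgfra, at 18, 611 and 18 against 92, 12 and 12, had the same shape, with a log2 fold change of 2.52 that became -0.99 without that library. Csf1r had 1 to 21 counts and Flt3 had 0 in all libraries, and neither was tested. Counts of Pdgfra and Pdgfrb were highest in NR4A1 overexpression replicate 2 and next highest in vector control replicate 1. Of the fibroblast list, Col1a1, Col1a2, Col3a1 and Dpt had the same order, while Dcn, Fbln1 and Lum did not. Dcn was at 960 CPM in vector control replicate 1, against 878 to 1031 CPM elsewhere. In vector control replicate 1, Col1a1, Col1a2 and Col3a1 had 303, 284 and 125 counts, against 84 to 124, 10 to 45 and 10 to 32 in the other 4 libraries. Acta2 had 15 counts in vector control replicate 1, against 13 and 15 in the other controls. Whether other cell types had a part in these counts was not tested.

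**Figure D2:**
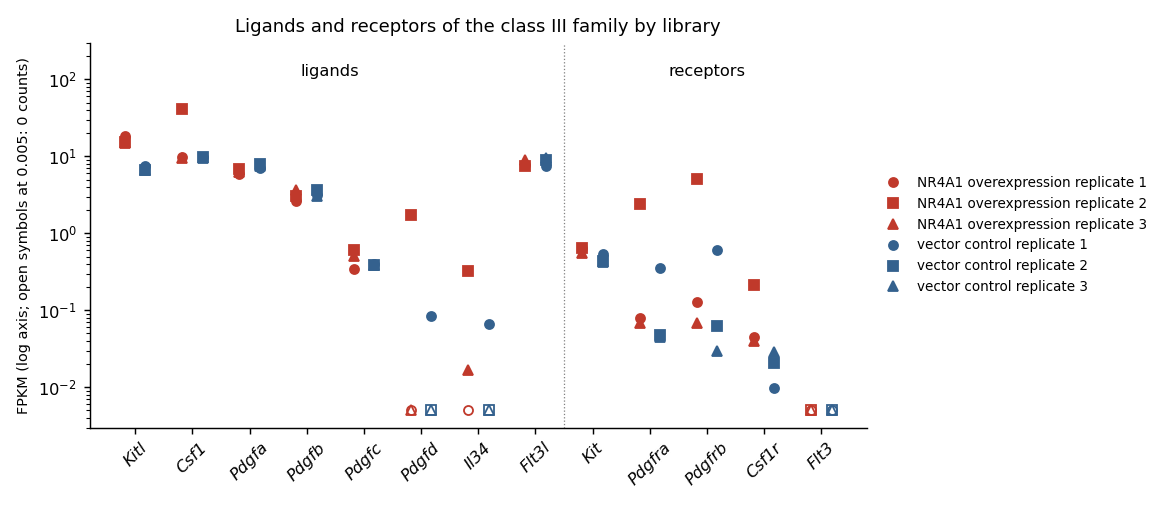
FPKM on a log axis of Kitl, Kit and the ligands and receptors of the same family in each library, with open symbols for 0 counts. Kitl is higher in the red NR4A1 overexpression symbols than in the blue vector control symbols. The highest point of each of Csf1, Pdgfc, Pdgfd, Il34, Pdgfra, Pdgfrb and Csf1r is that of NR4A1 overexpression replicate 2. That of Kit is too, but only at 0.647 against 0.642 FPKM in replicate 1 of that group.

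Of the 7 related ligands, 5 were tested and 0 reached the limits set here, an adjusted p under 0.05 together with a difference of 2-fold or more, which 0.170% of all tested genes reached. Csf1, the macrophage growth factor and the highest of them by mean FPKM, had 1168, 5617 and 1328 counts under NR4A1 overexpression against 1353, 1279 and 1334 with the vector. A single library was high and the other 5 lay between 1168 and 1353 counts. The log2 fold change of Csf1 was 1.09 (SE 0.557, adjusted p = 0.828, edgeR's quasi-likelihood test) and 0.02 without NR4A1 overexpression replicate 2. Pdgfa, named after its values were seen, was lower in every NR4A1 overexpression library, with 461, 599 and 573 counts against 634, 686 and 691, a log2 fold change of -0.22 that did not pass (adjusted p = 0.728, edgeR's quasi-likelihood test).

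Among the genes through which the ligand is shed and the receptor signals, only Gab2 differed by an adjusted p. Over the 7 lists 91 genes were listed and 74 tested, and 0 passed the threshold in either direction, against 0.170% of all tested genes (22 higher and 0 lower). By an adjusted p under 0.05 alone, 1 of the 74 passed, against 0.240% of all genes. At an unadjusted p under 0.05, 4 of the 74 were higher and 1 lower with edgeR, against 4.02% and 2.44% of all tested genes, and DESeq2 also put 0 past the threshold. Of the 74 genes, 5 were higher and 5 lower without overlap of the groups, 6.76% in each direction, close to the 6.69% and 6.22% of all genes. The median log2 fold change of the 74 genes was 0.04, against 0.01 over all tested genes.

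Gab2, a scaffold that carries PI3 kinase and SHP2 to activated KIT, was the gene past the adjusted p. Its counts were 291, 378 and 383 under NR4A1 overexpression and 204, 185 and 207 with the vector. Every NR4A1 overexpression library was above every control. The log2 fold change was 0.90 (SE 0.101, adjusted p = 0.0416, edgeR's quasi-likelihood test), under the 2-fold limit. Its mean level was 3.24 FPKM against 1.77 FPKM. Leaving out NR4A1 overexpression replicate 2 gave 0.86 (adjusted p = 0.0490 by the same test). Over the 12 alternatives the adjusted p lay between 8.63e-07 with DESeq2 and 0.229 with another library left out, and the call was lost in 7 of them, so that it sat at the edge of the threshold while its log2 fold change stayed between 0.61 and 0.95.

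Among the 14 adaptors, 12 were tested. Gab1, a scaffold related to GAB2 and the highest of them by mean FPKM, was at 31.0 FPKM under NR4A1 overexpression and 33.8 FPKM with the vector, a log2 fold change of -0.11 (adjusted p = 0.910, edgeR's quasi-likelihood test), which was -0.031 without NR4A1 overexpression replicate 2. The opposite signs of the 2 scaffolds were not compared by a test. Of 8 genes for shedding, 5 were tested. Adam10, a membrane protease, was the highest of them, at 70.1 against 60.8 FPKM, and vector control replicate 2 was far below the others, with 3836 counts against 6656 to 8080. Its log2 fold change of 0.23 (SE 0.249) became -0.033 without that library. Timp3, an inhibitor of such proteases, had the largest difference of this list, with 3354, 3829 and 3364 counts against 3251, 2830 and 3289 and a log2 fold change of 0.26 that did not pass (adjusted p = 0.671, edgeR's quasi-likelihood test). Cma1, the mast cell chymase that cleaves the ligand, had 0 counts in all libraries.

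Of 33 signalling enzymes and STATs, 31 were tested, and their log2 fold changes lay between -0.17 and 0.76 with a median of 0.04. Mapk3, which encodes the kinase ERK1, was the highest by mean FPKM, at 51.6 against 57.7 FPKM and a log2 fold change of -0.14 (adjusted p = 0.892, edgeR's quasi-likelihood test), which was -0.046 without NR4A1 overexpression replicate 1 and -0.22 without replicate 2 of that group. Fes, a kinase of blood cells, had the largest difference, with 7, 68 and 15 counts against 19, 22 and 14. Its log2 fold change of 0.76 (SE 0.743) rested on NR4A1 overexpression replicate 2 and was -0.65 without it. Pik3r3, a regulatory subunit of PI3 kinase that was named after its values were seen, had 393, 438 and 380 counts against 361, 284 and 378, a log2 fold change of 0.33 (adjusted p = 0.722, edgeR's quasi-likelihood test).

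Of 15 negative regulators, 12 were tested, with a median log2 fold change of 0.14. Cblb, a ubiquitin ligase named after its values were seen, had 792, 866 and 793 counts against 706, 616 and 755. Its groups did not overlap, and its log2 fold change of 0.33 did not pass (adjusted p = 0.564, edgeR's quasi-likelihood test). Ptpn6, the phosphatase SHP1, had the largest difference, -0.42 on the log2 scale, at 5 to 15 counts per library. It was -0.97 without NR4A1 overexpression replicate 2 and between -0.63 and -0.18 when any other library was left out. Of 10 genes listed as transcription factors of Kit or their partners, 7 were tested. Ldb1 was the highest, at 36.4 against 39.1 FPKM, and Gata2 had the largest difference, with 22, 134 and 31 counts against 46, 38 and 27, a log2 fold change of 0.80 that was -0.39 without NR4A1 overexpression replicate 2. Mitf, the pigment cell factor named here for its role, had 8 to 20 counts.

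**Figure D3:**
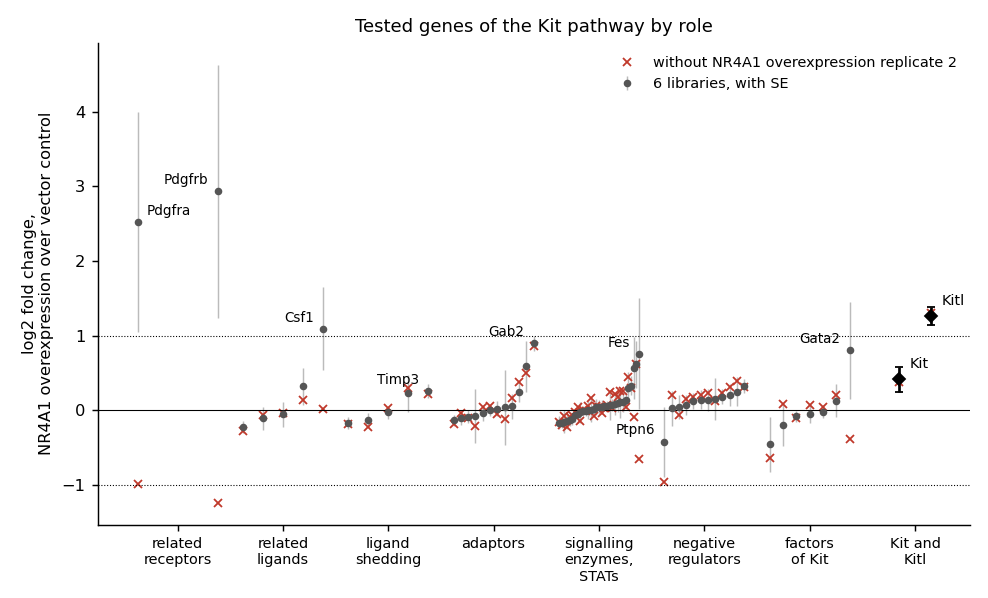
Log2 fold change of each tested pathway gene, grouped by role, with its standard error (grey), and the value without NR4A1 overexpression replicate 2 (red crosses). Dotted lines mark a 2-fold change, and diamonds Kit and Kitl. Pdgfrb, Pdgfra and Csf1 stand above the upper line and their crosses near or below 0, while the crosses of Gab2, Kit and Kitl stay beside their points.

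The genes around Kitl and Kit were examined for changes that run along the chromosome. Within 1 Mb of the Kitl start lay 22 genes, 6 of them tested and 0 past the threshold, which 0.170% of all tested genes passed. The nearest tested genes were far off. Dusp6, which encodes a phosphatase of ERK, starts 752.4 kb before Kitl and had 673, 819 and 689 counts under NR4A1 overexpression against 600, 588 and 609 with the vector. Its groups did not overlap, and its log2 fold change of 0.36 (SE 0.0934, adjusted p = 0.394, edgeR's quasi-likelihood test) did not pass. Tmtc3, 428.3 kb after the Kitl start, had a log2 fold change of 0.25 (adjusted p = 0.887, edgeR's quasi-likelihood test), which was 0.072 without NR4A1 overexpression replicate 1 and 0.11 without vector control replicate 2.

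Within 1 Mb of the Kit start lay 36 genes, 8 of them tested and 0 past the threshold with edgeR's quasi-likelihood test, while 1 had an unadjusted p under 0.05 around each of Kitl (Dusp6) and Kit (Clock, log2 fold change -0.40, adjusted p = 0.767), against 6.46% of all tested genes. Without NR4A1 overexpression replicate 2 the value of Clock was -0.26. DESeq2 also put 0 past the threshold around either gene. Kit lies in a cluster of related receptors. Pdgfra starts 422.6 kb before it and Kdr, the VEGF receptor, 357.9 kb after it. Kdr had 38 counts in NR4A1 overexpression replicate 2 and 0 in the other 5 libraries. Kit, between them, had 142 counts in that library and 94 to 125 in the others. In CPM it was also highest there, but only at 8.46 against 8.45 in NR4A1 overexpression replicate 1. Whether these genes share a source of their counts in that library was not tested. Srd5a3, the nearest tested gene on the far side, had a log2 fold change of -0.06 (adjusted p = 0.972, edgeR's quasi-likelihood test).

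**Figure D4:**
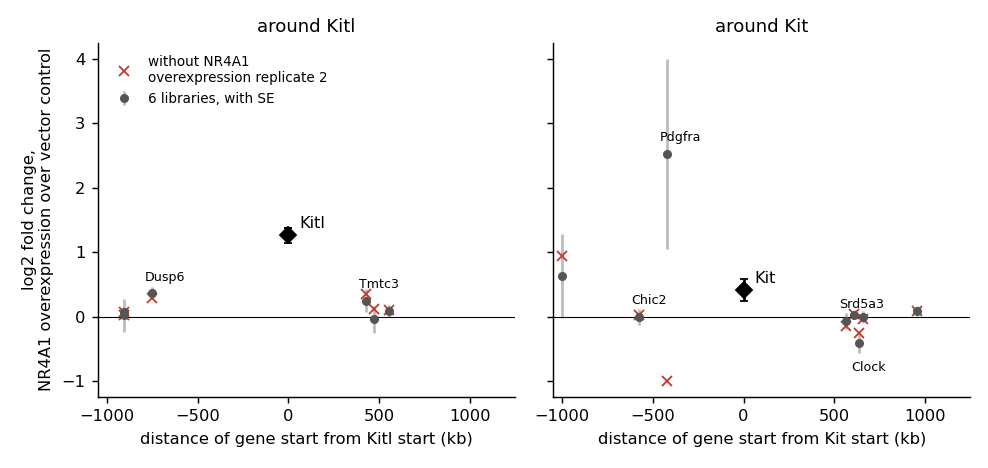
Log2 fold change with its standard error of the tested genes within 1 Mb of Kitl (left) and Kit (right) against the distance of their starts in kb, with red crosses for the values without NR4A1 overexpression replicate 2. Kitl stands at 1.27 above neighbours between -0.04 and 0.36, and Kit at 0.41 beside Pdgfra, whose value of 2.52 becomes -0.99 without that library.

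The genes whose levels followed those of Kitl most closely over the 6 libraries were ranked by the root mean square difference of their log2(CPM + 1), each centred on its own mean, over 10423 genes with a mean count of at least 100. Acacb, an acetyl-CoA carboxylase of fatty acid metabolism, was nearest at 0.116, followed by Cytip at 0.157, Napb at 0.169, Iqgap2 at 0.178 and Plcxd2 at 0.202, against a median of 0.648 over all genes. Acacb had 254, 251 and 285 counts under NR4A1 overexpression against 119, 82 and 104 with the vector. Its level was 16.2 ± 1.13 against 5.89 ± 0.997 CPM (SD, n = 3 each), and its log2 fold change 1.46. None of the 5 genes lies on the chromosome of Kitl. They were selected for this likeness in the same libraries, so no test is given.

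For Kit, the nearest genes were Slc19a2, a thiamine transporter, at 0.0424, Rab1a at 0.0527, Ap1s2 at 0.0570, Rhobtb3 at 0.0686 and Cald1 at 0.0691, against a median of 0.255. Slc19a2 was at 12.4 ± 0.991 CPM under NR4A1 overexpression and 8.99 ± 0.948 CPM in the vector controls (SD, n = 3 each). The small distances go with the small range of the Kit values, since a gene that varies little is near many others. The lists of 5 for Kitl and Kit have no gene in common.

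**Figure D5:**
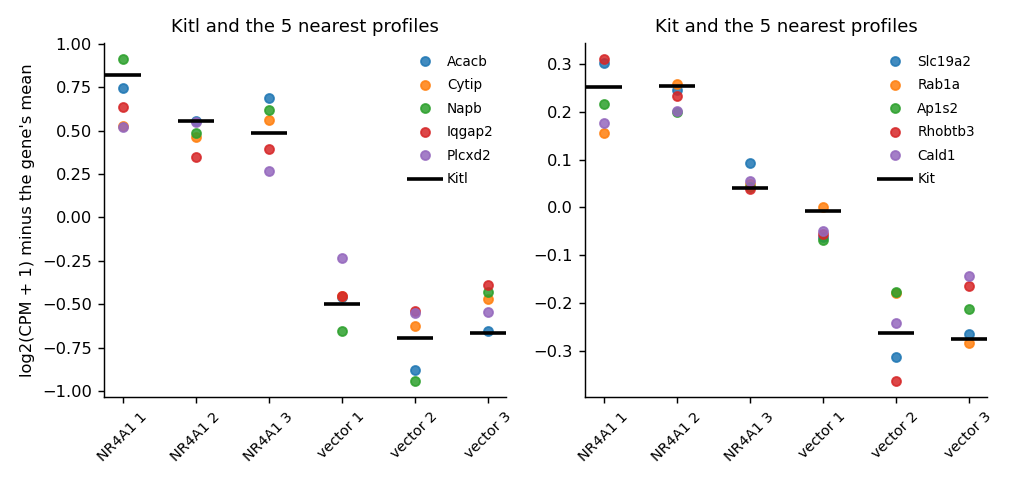
Level of Kitl and of Kit (black bars) and of the 5 genes with the nearest profiles (dots) in each library, as log2(CPM + 1) minus the gene's mean. The vertical scales differ. The Kitl panel falls into separated groups, and in the Kit panel NR4A1 overexpression replicate 3 lies close to vector control replicate 1.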

How the data were processed

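RNA of MLE-12 cells was sequenced in 3 NR4A1 overexpression and 3 vector control libraries, grouped by the labels. The authors deposited a gene table that holds for each library the reads counted on a gene and the FPKM made from them, a deposited count and a deposited FPKM. The submitters' processing notes name HISAT2 2.0.4 and GRCm38 p4, the study's methods name a stranded total RNA kit, and the counting program is not given in the sources used here. Over 11586 genes the deposited FPKM followed the counts and library totals.

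Counts were normalized by TMM, filtered with filterByExpr (12941 of 34745 genes kept) and compared with edgeR 4.0.16 (quasi-likelihood test, R 4.3.3), with Benjamini-Hochberg adjustment over all tested genes, and the threshold was an adjusted p under 0.05 and at least 2-fold. The methods were first run on simulated counts with the same spread set for every gene and no deviating library. That run therefore cannot show how they behave with a library that stands apart. DESeq2 1.42.0, limma 3.58.1 on log2(FPKM + 1) of the deposited FPKM, other scalings, no filter, the replicate number as a block, an unadjusted p and each library left out were tried as alternatives. No pair of libraries of a group agreed within counting error, with a chi-square per degree of freedom of 9.73 to 42.7. The coefficients of variation computed from counts alone cover counting error only, while each SD and SE includes the spread between libraries. Each SE is the absolute log2 fold change divided by the square root of edgeR's quasi-likelihood F statistic. The spread behind it is partly pooled over genes. Sequences and exons were read with Python 3.11.15 from RefSeq promoter windows (GRCm38.p6) and GENCODE transcripts, where both genes were matched by symbol.

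The members, gene lists and tests were chosen with earlier results of these data known. The text names, in each list, the gene highest in mean FPKM and the tested gene with the largest log2 fold change, any listed gene past the threshold, the nearest tested genes on each side, the 5 nearest profiles and the highest marker of each list. Other listed genes are named for their role or their place, or are marked as named after their values were seen. The result of 1 listed gene is left out here.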

Additional observations from a re-analysis of the deposited data

How the results depend on the processing

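The log2 fold change of Kitl kept its direction and moved by less than the spread between libraries in all 12 alternatives, from 1.13 to 1.33, and that of Kit in 11, from 0.36 to 0.52. The values that left out 1 library each ran from 1.16 to 1.33 for Kitl and from 0.36 to 0.52 for Kit. Limma on log2(FPKM + 1) gave no value for Kit, whose mean FPKM is under 1. With the replicate block, 5 genes passed the threshold in place of 22, and no pathway gene or neighbour did. For pairing, the group mean of each gene was subtracted from its log2(CPM + 1). These deviations correlated across genes at 0.020, 0.046 and 0.178 between same-numbered libraries of the 2 groups. Between libraries with different numbers the correlations lay from -0.304 to 0.227. The labels state no pairing. DESeq2 put 73 genes past the threshold, limma on FPKM 7, an unadjusted p 161, and fits that left out 1 library each from 3 to 28, while 0 pathway genes and 0 neighbours passed in any of the 13 alternatives. With each library left out in turn, log2 fold changes ran from -1.24 to 5.27 for Pdgfrb, -0.99 to 4.19 for Pdgfra, -0.65 to 1.20 for Fes and -0.39 to 1.18 for Gata2, each lowest without NR4A1 overexpression replicate 2, and from -0.033 to 0.39 for Adam10 and -0.14 to 0.019 for Srd5a3, which changed sign without vector control replicate 2. The cause of these shifts was not tested. Counts of about 100 per library limit what can be said of Kit.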

Other observations

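The primer pair that the study lists for RT-qPCR of Kitl was matched to the annotated transcripts (GENCODE, GRCm38). By RT-qPCR the paper reports induction by NR4A1 overexpression of a gene printed as Kit1, and its primer list holds Kitl and no Kit1. The sites are shown as they read in the transcript, 5′ to 3′ on its strand, because they lie at the edge of exon 1, where the transcripts of Kitl differ.
Forward site, chr10:100016028-100016048: agacacaagtgagtagggcac
Reverse site, chr10:100016073-100016092: ccaagaaaatcgctccggga
Both sites lie in exon 1 of Kitl-203, a transcript of 675 bases and 4 exons, and span 65 bases. Among the annotated transcripts as spliced, they match 1 each. Exon 1 of Kitl-201 and Kitl-202 ends at 100016035, inside the forward site, and the reverse site lies beyond it. Both sites lie in an unbroken stretch of the genome, so unspliced Kitl RNA and genomic DNA hold them too. Whether the stretch of Kitl-203 that lies beyond the other first exons entered the deposited count is not known, since the counting program and its annotation are not given in the sources used here. How much of the Kitl count came from Kitl-203 was not tested, since the table holds 1 value per gene and library.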
